A study of Mus musculus with 8 samples.

Results

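Mitochondrial ribosomal protein genes were followed in the hippocampus of mice given a diet holding astaxanthin, mild treadmill running, or both. The genes were taken by symbol, as every probe that is not a control and whose symbol starts with Mrpl or Mrps followed by a digit. This gave 78 genes (49 Mrpl, 29 Mrps) with 99 probes on the array, and 77 of them (48 Mrpl, 29 Mrps) passed the filter on dim probes and stand for the family among 27188 genes and unnamed transcripts kept in all. Mrpl21 was not well above background on any of the 8 arrays and was not tested. Each gene was represented by 1 probe, the brightest over all 8 arrays among probes saturated on none. The single probe of Mrpl20 was saturated on 2 arrays, so 76 members had an unsaturated probe, and for Mrps33 the dimmer probe was used because the brighter was saturated on 3 arrays.

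The study crossed running with diet in male C57BL/6J mice aged 11 weeks and housed singly, which carry no engineered allele. The groups were AX+ME, with the astaxanthin diet and mild treadmill exercise; AX, with the astaxanthin diet in sedentary mice; ME, with mild exercise on the placebo diet; and SED, sedentary on the placebo diet. The powder mixed into the food made up 0.5% of it in every group, and 2% of the astaxanthin powder was astaxanthin, a carotenoid from the alga Haematococcus pluvialis. Each group had 8 mice and 2 RNA samples on an array each, replicate 1 in the dye Cy3 and replicate 2 in Cy5. How 8 mice gave 2 samples is not stated in the sources used here. Separate animals behind the 2 samples are not stated either, so p-values cover only the spread between these samples, which can be technical.

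The mitochondrial ribosome, or mitoribosome, translates the few messenger RNAs that the mitochondrial genome encodes, all of them core subunits of the respiratory chain and of ATP synthase. Its RNAs come from the mitochondrial genome, while its proteins are made in the cytosol from nuclear genes and imported. Proteins named Mrpl belong mostly to the large subunit, which joins amino acids and extrudes the chain through an exit tunnel, and those named Mrps mostly to the small subunit, which reads the messenger RNA. Many have counterparts in bacterial ribosomes and the rest are particular to mitochondria. Roles given here are known mainly from human and pig mitoribosomes. In neurons the respiratory chain supplies most of the ATP for ion pumping and synaptic activity.

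Per array, 59305 spots were not controls, and 63.2% to 76.2% of them were well above background, with 919 to 1474 saturated. The array's 75th percentile of signal, by which every signal was divided, lay between 1240 and 2043 intensity units. The channel without a sample was well above background for 0 or 1 of the 126 member spots on an array. Markers of neurons, dentate granule cells, pyramidal cells, astrocytes, oligodendrocytes and microglia were all well above background on all 8 arrays. Each dye took a row of the slide and each group a column, so slide position and group cannot be told apart. Precision is limited by having 2 arrays in a group. In whole hippocampal tissue, fewer cells of a type and less RNA per cell cannot be told apart. Both SED arrays carried swirls of dim spots in array columns below 70, so members with a probe from column 70 on (39 genes), below column 70 (35 genes) and with repeated spots on both sides (Mrpl34, Mrpl50 and Mrps35) are given apart.

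Most nuclear genes for mitochondrial proteins are known to be driven by NRF1, by the ETS factor GABP (also called NRF2) and, in part, by YY1. RefSeq's table of promoters (GRCm38.p6), with 250 bases before to 50 after each start, held 69 of the 78 members. The 3 exact words searched on both strands were CCGGAAG for ETS factors, GCGCATGCG for NRF1 and AAGATGGCG for YY1. The NRF1 word and its reverse complement overlap by all but a base at each end. The ETS word stood in 26 of the 69 member promoters (37.7%), against 21.8% of genes of like brightness, 16.3% of all genes kept and 12.9% of all protein-coding genes in the table. The NRF1 word stood in 7 (10.1%), against 3.97% of genes of like brightness and 2.61% of protein-coding genes. The YY1 word stood in 8 (11.6%), against 4.16% and 2.14%. At least 1 word was found in 36 (52.2%), against 27.7% and 16.6%. The median GC content was 58.0% in the member promoters, against 61.7% in genes of like brightness and 59.7% in all genes kept. A match is a string of letters, and binding of a factor was not measured here.

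The 250 bases before the start are shown for 5 members whose values are described in detail: Mrpl17 and Mrpl36, which passed the test against SED, and Mrpl32, Mrps18a and Mrps18c, which were among the members farthest apart with a probe from column 70. Capitals mark the words searched, on either strand, and each run reads 5′ to 3′ along the gene's strand.
Mrpl17, chr7:105811088-105811337, minus strand: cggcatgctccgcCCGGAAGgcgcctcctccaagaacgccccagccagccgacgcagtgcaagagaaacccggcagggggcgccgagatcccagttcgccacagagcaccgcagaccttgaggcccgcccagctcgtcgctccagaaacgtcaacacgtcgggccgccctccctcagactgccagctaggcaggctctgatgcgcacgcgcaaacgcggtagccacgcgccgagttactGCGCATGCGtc
Mrpl32, chr13:14613038-14613287, minus strand: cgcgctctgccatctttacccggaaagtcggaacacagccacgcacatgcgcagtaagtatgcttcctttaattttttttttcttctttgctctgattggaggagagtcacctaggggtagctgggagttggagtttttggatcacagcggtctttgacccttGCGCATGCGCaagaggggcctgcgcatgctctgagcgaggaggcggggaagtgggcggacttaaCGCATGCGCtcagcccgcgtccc
Mrpl36, chr13:73330759-73331008, plus strand: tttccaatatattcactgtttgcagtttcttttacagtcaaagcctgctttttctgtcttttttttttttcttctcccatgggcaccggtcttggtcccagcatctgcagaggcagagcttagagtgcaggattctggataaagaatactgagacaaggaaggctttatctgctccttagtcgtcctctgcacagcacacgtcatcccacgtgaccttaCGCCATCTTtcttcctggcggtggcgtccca
Mrps18a, chr17:46110754-46111003, plus strand: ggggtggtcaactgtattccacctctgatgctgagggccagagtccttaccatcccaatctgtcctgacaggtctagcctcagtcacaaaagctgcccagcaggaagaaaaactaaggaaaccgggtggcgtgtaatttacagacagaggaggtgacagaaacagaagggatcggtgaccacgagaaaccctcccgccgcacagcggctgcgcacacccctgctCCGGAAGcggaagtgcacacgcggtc
Mrps18c, chr5:100798509-100798758, plus strand: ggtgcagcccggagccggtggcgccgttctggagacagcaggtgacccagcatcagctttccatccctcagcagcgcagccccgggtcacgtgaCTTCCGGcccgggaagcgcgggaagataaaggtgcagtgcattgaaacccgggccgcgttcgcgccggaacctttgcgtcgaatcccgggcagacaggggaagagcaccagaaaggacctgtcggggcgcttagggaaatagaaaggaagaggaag
Mrpl17 held an NRF1 word that began 11 bases before the start and an ETS word 237 bases before it. Mrpl32 held overlapping NRF1 words on both strands, the first at 87 bases before the start, and another on the reverse strand at 23. Mrpl36 held a YY1 word on the reverse strand 31 bases before the start. Mrps18a and Mrps18c each held an ETS word, at 26 bases on the gene's strand and at 156 bases on the reverse strand. Mrps18a also held a YY1 word on the gene's strand after the start, outside the stretch shown.

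Member probes were bright. Their mean log2 scaled signal (signal over the array's 75th percentile) had a median of 2.82, against -0.71 over all genes kept, and 75 of 77 were brighter than the median gene. The median member stood at percentile 83.6. Probe brightness depends on the probe as well as on the transcript, so it does not rank the members' levels. The brightest were Mrpl20, Mrps26, Mrpl57, Mrpl41 and Mrps12, and the dimmest Mrpl1, Mrpl35, Mrpl37, Mrps27 and Mrps5. Brightness matters here because differences between groups depended on it: the median log2 difference of AX+ME from ME was 0.32 in the dimmest of 40 bins of genes and -0.070 in the brightest. The members are therefore set beside 6870 other genes of like brightness, those between the 10th and 90th percentile of the members (log2 1.08 to 4.25).

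**Figure D1:**
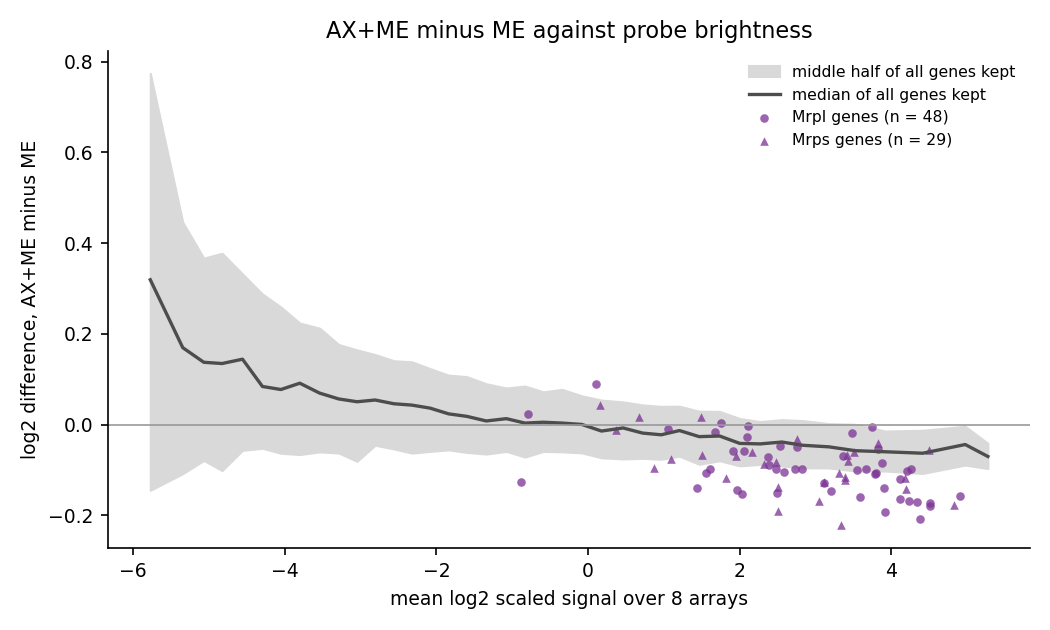
Log2 difference of AX+ME minus ME (y axis) against mean log2 scaled signal over the 8 arrays (x axis). The line and band are the median and quartiles over 40 bins of all genes kept, and the points are the 77 members. The bins run from 0.32 for the dimmest genes to -0.070 for the brightest, and 71 of the 77 members lie below 0.

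The 2 samples of a group were close for members from column 70. After subtracting the dye difference of the other groups, the Cy5 minus Cy3 log2 difference had an SD over these 39 members of 0.078 in AX+ME, 0.057 in AX, 0.065 in ME and 0.088 in SED, and no member exceeded 0.3. Below column 70 the SDs over 35 members were 0.065 in AX+ME, 0.066 in AX and 0.081 in ME, but 0.58 in SED, where 18 members exceeded 0.3 and the largest reached 1.41. Mrps35, a small subunit protein particular to mitochondria, shows the same thing within an array, because its probe was printed 10 times across the slide area. On the 6 arrays of AX+ME, AX and ME its spots varied by 1.55% to 3.21% (CV). In SED they varied by 4.06% in replicate 1 and 25.3% in replicate 2, where single spots lay between 0.656 and 1.73 scaled units. The spots of Mrpl34 varied by 9.48% and 20.8% and those of Mrpl50 by 8.22% and 22.2% on the SED arrays, against at most 2.41% for either gene on the others. The SED spots from column 70 on were uneven too, though less: those of Mrpl34 ran from 5.61 to 6.80 in replicate 1 and 5.51 to 7.81 in replicate 2, against 4.99 to 6.75 and 3.64 to 6.37 below column 70. Those of Mrpl50 in replicate 2 ran from 6.42 to 8.50, against 3.35 to 8.46 below column 70, and those of Mrps35 from 1.39 to 1.58, against 0.656 to 1.73. A member with a single spot below column 70 therefore has an uncertain value in SED, which enters each difference from SED.

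**Figure D2:**
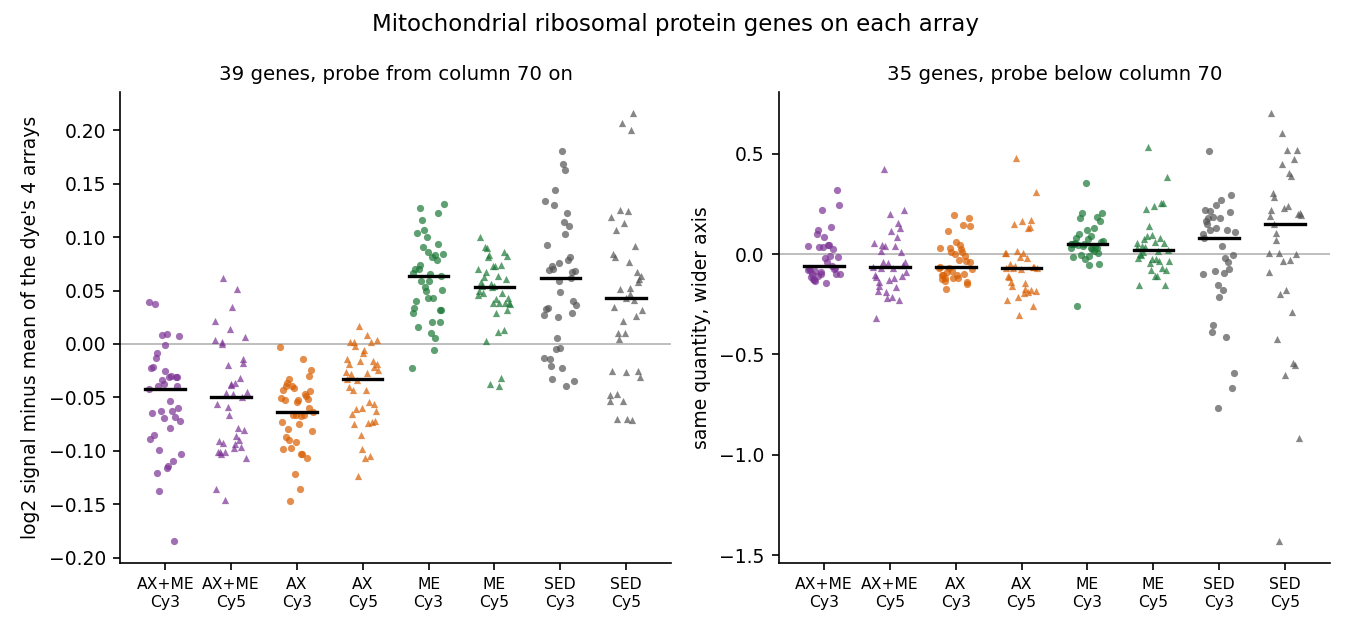
Log2 scaled signal of each member minus the mean of the 4 arrays of the same dye (y axis), for the 8 arrays (x axis), with probes from column 70 and below it in separate panels. Points are members and bars are medians. From column 70 the medians are -0.043 and -0.050 in AX+ME, -0.064 and -0.032 in AX, 0.064 and 0.054 in ME and 0.061 and 0.043 in SED, and below column 70 the SED arrays spread from -1.43 to 0.70.

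The first question is whether the family differed when astaxanthin was added to exercise, AX+ME against ME, a difference in which no SED array enters. Members lay slightly lower in AX+ME. Their median log2 difference was -0.098, against -0.040 for genes of like brightness and -0.007 for all genes kept, and it was -0.084 in Cy3 and -0.10 in Cy5. Of the 77 members 71 were lower, 64 of them in both dyes (83.1%). Lower in both dyes were 32.7% of all genes kept and 52.7% of genes of like brightness. From column 70 all 39 members were lower, 36 in both dyes, with a median of -0.10 against -0.040 for genes of like brightness there. No member passed limma's test at an adjusted p of 0.05 (0 of 77; 0.0% of all genes were called higher and 0.0% lower), and 11 members (14.3%) had an unadjusted p under 0.05, against 8.36% of all genes and 3.93% of genes of like brightness. Limma's error pools all 8 arrays, the uneven SED arrays included. With both SED arrays left out of the fit, an alternative added after the data were seen, limma still called 0 of 77 (0.0% of all genes), with 17 members (22.1%) at an unadjusted p under 0.05, where 13.2% of all genes were, and a smallest adjusted p of 0.339.

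The small shift was spread over the parts of the ribosome. The 8 proteins of the central protuberance, the crown of the large subunit that contacts the small one, were all lower with a median of -0.10. The 5 proteins of the L7/L12 stalk and its base, which recruit translation factors, were all lower with a median of -0.054. Of the 7 proteins around the exit tunnel 6 were lower, with a median of -0.069. Other large subunit proteins had medians of -0.10 both with bacterial counterparts (17 of 18 lower) and particular to mitochondria (11 of 12 lower). In the small subunit the median was -0.084 for proteins with bacterial counterparts (15 of 16 lower) and -0.099 for those particular to mitochondria (8 of 10 lower). Mrps36, which carries a ribosomal name but belongs to the 2-oxoglutarate dehydrogenase complex, differed by -0.13.

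The members farthest apart in both dyes were small differences with tight replicates. Mrps18c, a counterpart of bacterial ribosomal protein S18, had scaled signals of 8.93 and 9.63 in AX+ME, 8.65 and 10.2 in AX, 10.4 and 11.3 in ME, and 10.5 and 11.6 in SED. Both AX+ME samples lay below the ME sample of the same dye, and the groups did not overlap; the log2 difference was -0.22 ± 0.059 (SE; limma adjusted p = 0.525). Mrpl33, a counterpart of bacterial L33, had 20.0 and 18.4 in AX+ME, 20.6 and 19.3 in AX, 23.4 and 20.9 in ME, and 24.3 and 20.5 in SED. Its AX+ME and AX samples were the lower ones in each dye, and AX+ME minus ME was -0.21 (limma adjusted p = 0.557). Mrpl57, particular to the mitochondrial large subunit, had 21.7 and 20.8 in AX+ME, 21.4 and 21.6 in AX, 24.9 and 23.3 in ME, and 26.5 and 23.5 in SED, and differed by -0.18 (limma adjusted p = 0.589). Its ME and SED samples were all above its AX+ME and AX samples. Below column 70, Mrpl23 differed by -0.19 and Mrps28 by -0.19, while the dim probes of Mrpl37 and Mrps27 differed by 0.090 and 0.044.

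The values of 6 more members, from both subunits, follow; Mrps30 and Mrpl58 were picked after their values were seen. Mrpl44, a tunnel exit protein with a fold like that of RNase III, had scaled signals of 3.58 and 3.97 in AX+ME, 3.62 and 4.26 in AX, 3.89 and 4.51 in ME, and 4.18 and 4.73 in SED. Within each dye AX+ME was lowest and SED highest, and AX+ME minus ME was -0.15. Mrpl41, particular to the mitochondrial large subunit, had 22.3 and 20.9 in AX+ME, 21.7 and 22.1 in AX, 25.0 and 23.7 in ME, and 24.8 and 22.8 in SED. ME was highest in both dyes and the AX+ME and AX samples lay below all ME and SED samples. Mrps26, of the small subunit and among the brightest members, had 25.2 and 27.7 in AX+ME, 27.7 and 26.9 in AX, 31.2 and 28.6 in ME, and 30.9 and 30.2 in SED, again with AX+ME and AX below the other 4 samples. Mrps36 had 8.04 and 8.35 in AX+ME, 8.10 and 8.96 in AX, 8.75 and 9.15 in ME, and 9.11 and 9.20 in SED, where AX replicate 2 overlapped ME. Mrps30, a large subunit protein despite its name, had 4.47 and 4.49 in AX+ME, 4.24 and 4.60 in AX, 4.61 and 4.73 in ME, and 4.46 and 4.38 in SED. Its ME samples were the highest in each dye and its SED samples were close to, and below, its AX+ME samples. Below column 70, Mrpl58, a peptidyl-tRNA hydrolase built into the large subunit, had 12.8 and 13.2 in AX+ME, 13.0 and 13.4 in AX, 14.3 and 13.7 in ME, and 14.8 and 16.0 in SED. Mrpl41, Mrps26 and Mrps36 each had a second, dimmer probe kept. AX+ME minus ME by that probe was -0.051, -0.069 and -0.037, against -0.17, -0.18 and -0.13 by the probe used. None of these 6 members passed limma's test in any comparison.

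The size of this shift depended on how arrays were scaled. With quantile normalization the median was -0.048 with 61 of 77 members lower, against 0.001 for genes of like brightness. With cyclic loess it was -0.055 with 62 lower, against -0.002, and with scaling to the array median -0.18 with 76 lower, against -0.12 for like brightness and -0.090 for all genes. The sign of the members' median and its place below genes of like brightness were kept under each of the 3. Markers of tissue next to the hippocampus and of cell types also moved between groups. The summed scaled signal of 3 pituitary genes (Prl, Gh and Pomc, of which 1 was well above background on all arrays) was 1.03 to 1.06 in AX+ME, 1.09 to 1.14 in AX, 0.686 to 0.697 in ME and 1.53 to 1.63 in SED. That of 6 choroid plexus genes, all well above background, was 47.8 to 49.9 in AX+ME, 48.7 to 58.3 in AX, 45.4 to 56.6 in ME and 48.5 to 65.9 in SED. That of 4 neuronal genes was 106 to 111 in AX+ME, 96.1 to 117 in AX, 99.0 to 128 in ME and 127 to 150 in SED, and 3 of the 4 were lower in AX+ME than in ME with a median of -0.045. For AX+ME against ME, each of the 6 genes of the choroid plexus was on the low side (median -0.087), and so were both blood genes kept (-0.25). Higher there were 3 of 4 genes of meningeal fibroblasts (median 0.36), all 3 of the striatum (0.18) and all 3 of the pituitary (2.26). The part of these markers in the members' shift, here and against SED, was not tested.

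**Figure D3:**
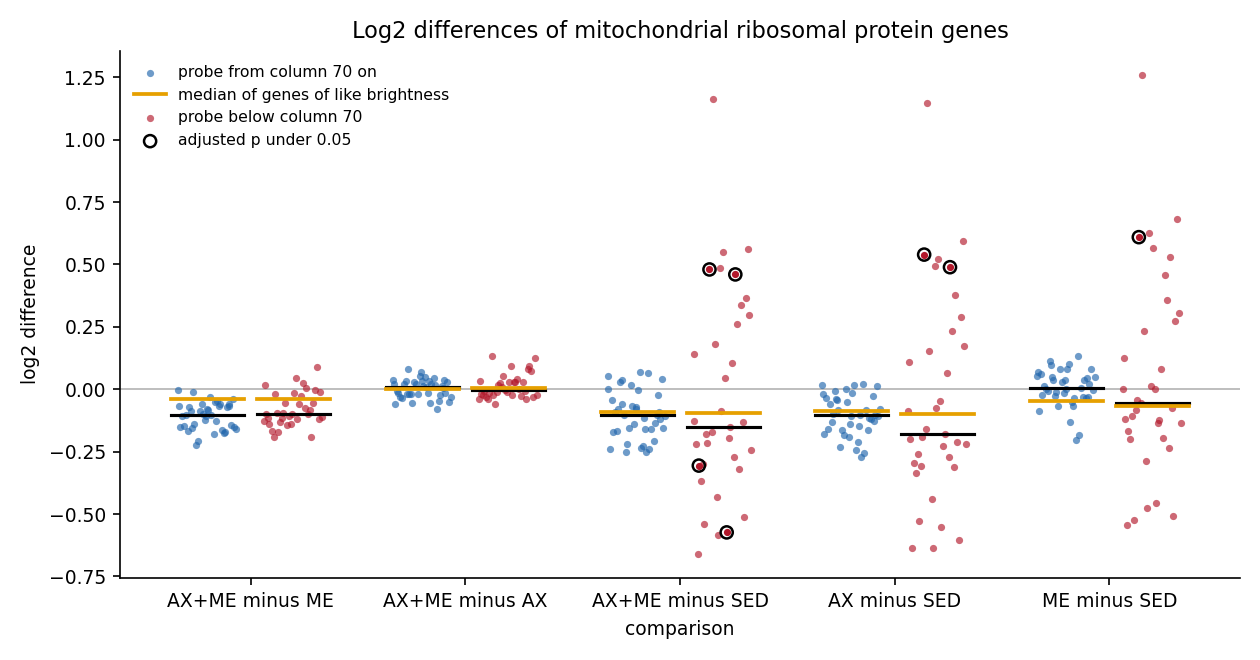
Log2 difference of members (points, y axis) in 5 comparisons along the x axis, with members from column 70 and below it side by side in separate colours. Points are spread sideways only to keep them apart, and members with spots on both sides are not shown. Black lines are medians of the members, and a yellow line is the median of genes of like brightness. Circles mark a limma adjusted p under 0.05. In AX+ME minus ME the members lie between -0.22 and 0.090. In the 3 comparisons with SED the members below column 70 spread more widely than those from column 70.

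AX against SED asks for the effect of the diet in sedentary mice and shares no sample with AX+ME against ME. The members' median log2 difference was -0.11, against -0.092 for genes of like brightness and -0.051 for all genes, so the family lay close to other bright genes here. Of the 77 members 59 were lower, 46 in both dyes (59.7%), where 41.8% of all genes were lower in both dyes. From column 70, 35 of 39 were lower with a median of -0.10, against -0.089 for genes of like brightness. With cyclic loess the members' median was -0.005 and that of like brightness 0.007. By limma 2 members were called higher, Mrpl36 and Mrpl17, and none lower (2.24% of all genes were called higher and 1.94% lower). It gave 27 members (35.1%) an unadjusted p under 0.05, against 27.5% of all genes and 34.5% of genes of like brightness. The calls depended on the setting: limma called 4 members higher and 10 lower with normexp background (5.05% and 10.6% of all genes), 2 higher and 4 lower with the array median (2.36% and 4.77%), and 2 higher and 8 lower with an intensity trend (3.67% and 6.45%). Mrpl36 and Mrpl17 had probes below column 70, where the SED arrays were uneven.

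Across these 2 comparisons, which share no sample, 58 of 77 members (75.3%) were lower with astaxanthin both in sedentary and in exercised mice, against 52.8% of genes of like brightness and 36.6% of all genes. From column 70 it was 35 of 39 (89.7%), against 59.7% and 41.1%. In 43 members (55.8%) the astaxanthin sample was the lower in all 4 same-dye pairs, against 35.0% of genes of like brightness. Array position and diet cannot be told apart in these shares.

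Among members from column 70 in AX against SED, the 3 farthest apart belong to the large subunit. Mrpl45, which sits at the tunnel exit and holds the ribosome to the inner membrane, had scaled signals of 5.58 and 5.42 in AX+ME, 5.39 and 5.47 in AX, 5.77 and 5.60 in ME, and 6.48 and 6.61 in SED. Both SED samples were above the other 6, and AX minus SED was -0.27 ± 0.052 (SE; limma adjusted p = 0.0651). Mrpl32, whose maturation by a protease of the inner membrane is needed before it joins the ribosome, had 3.62 and 3.57 in AX+ME, 3.61 and 3.51 in AX, 3.80 and 3.69 in ME, and 4.12 and 4.38 in SED. Its SED samples too were above the other 6, with a difference of -0.26 (limma adjusted p = 0.0863). Mrpl4, a counterpart of bacterial L4, had 18.1 and 16.8 in AX+ME, 18.7 and 16.1 in AX, 19.8 and 17.7 in ME, and 22.3 and 18.9 in SED, a difference of -0.24 (limma adjusted p = 0.087). A dimmer probe of Mrpl4, also from column 70, went the other way, with AX minus SED at 0.099. None of these 3 large subunit members passed. The 3 largest among members higher in both dyes, Mrps18a, Mrpl15 and Mrps23, differed by 0.021, 0.016 and 0.011.

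Mrpl36 passed against SED in each of the 3 comparisons. It is the counterpart of the small bacterial protein L36, a short protein of the large subunit. Its scaled signals were 9.15 and 9.12 in AX+ME, 9.24 and 9.81 in AX, 9.66 and 10.3 in ME, and 6.52 and 6.58 in SED. The 2 SED samples were lower than all others and close together. The log2 differences were 0.48 for AX+ME, 0.54 for AX and 0.61 ± 0.056 (SE) for ME against SED, with limma adjusted p of 0.0277, 0.0255 and 0.0207. Mrpl17, a protein at the tunnel exit, had 3.58 and 3.68 in AX+ME, 3.61 and 3.80 in AX, 3.57 and 3.67 in ME, and 2.45 and 2.84 in SED. It too was low in both SED samples, by 0.46 for AX+ME, 0.49 for AX and 0.46 for ME, with limma adjusted p of 0.0376, 0.0422 and 0.0502. Each of the 2 had 1 probe kept, below column 70, with no second probe to set beside it.

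AX+ME against SED asks for the effect of the combination. The members' median log2 difference was -0.12, against -0.093 for genes of like brightness and -0.044 for all genes, with 54 of 77 lower. In both dyes 44 members were lower and 15 higher, where 40.9% of all genes were lower and 28.0% higher. Mrpl36 and Mrpl17 were called higher, and Mrpl14 and Mrpl2 lower, so limma called 2 members in each direction (3.9% of all genes higher and 4.06% lower). It gave 29 members (37.7%) an unadjusted p under 0.05, against 32.7% of all genes and 38.7% of genes of like brightness. With the array median for scaling the calls were 2 higher and 17 lower (4.12% and 14.0% of all genes), with normexp background 5 higher and 15 lower (6.35% and 15.3%), with an intensity trend 2 higher and 11 lower (5.39% and 9.2%), and with quantile or cyclic loess normalization 2 higher and none lower. Mrpl14, which lies on the face of the large subunit toward the small one, had 14.1 and 13.7 in AX+ME, 14.2 and 13.8 in AX, 15.8 and 14.9 in ME, and 17.1 and 17.3 in SED. SED was highest and AX+ME and AX lowest, and AX+ME minus SED was -0.31 ± 0.053 (SE; limma adjusted p = 0.0458). Mrpl2, a core protein beside the catalytic centre, had 15.6 and 15.0 in AX+ME, 15.9 and 15.2 in AX, 17.2 and 16.1 in ME, and 20.8 and 24.9 in SED. The SED samples stood above the others and apart from each other, and the difference was -0.57 ± 0.11 (SE; limma adjusted p = 0.0499).

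The probes of Mrpl14 and Mrpl2 also lay below column 70. In a separate fit of 17775 genes measured from column 70 onward, no member of 45 was called in AX+ME against SED (limma; smallest adjusted p 0.0545), where 1.16% of those genes were called higher and 2.58% lower. From column 70 in the fit of all genes, 31 of 39 members were lower with a median of -0.11, against -0.092 for genes of like brightness. Mrpl45 differed by -0.25 (limma adjusted p = 0.0584), Mrps18c by -0.25 (0.0703) and Mrpl32 by -0.24 (0.0765). All 7 limma calls of members against SED were lost with any 1 of the 6 AX+ME, AX or ME samples left out, in fits with fewer residual degrees of freedom. The share of all genes called in those fits is not given, so the loss cannot be read as particular to these members. Mrpl14 was also lost without SED replicate 2 (adjusted p 0.0677). Without SED replicate 1, limma called 22 members in AX against SED and 22 in AX+ME against SED, where 19.0% and 20.3% of all genes were called. Without SED replicate 2 it called 6 members in each, where 5.8% and 8.01% of all genes were called, so the counts turn on the SED arrays.

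ME against SED asks for the effect of exercise alone. The members' median was 0.000, with 39 higher and 38 lower. It lay above the medians of genes of like brightness (-0.051) and of all genes (-0.045). In the separate fit from column 70 it was 0.013, against -0.043 for genes of like brightness. With cyclic loess it was 0.065, against 0.008. In both dyes 29 members were higher and 24 lower, where 23.9% of all genes were higher and 42.1% lower. Limma called 1 member higher, Mrpl36, and none lower (2.02% of all genes higher and 1.16% lower). It gave 14 members (18.2%) an unadjusted p under 0.05, against 24.0% of all genes and 26.5% of genes of like brightness. Without SED replicate 1 it called 16 (17.8% of all genes), and without SED replicate 2 it called 5 (5.08%). From column 70, 38 of 39 members lay within 0.2 of zero, with an SD over genes of 0.075, against 0.40 for the members below column 70. Mrps18a, a large subunit protein despite its name, had 10.9 and 10.6 in AX+ME, 11.0 and 9.89 in AX, 11.8 and 10.8 in ME, and 10.8 and 9.77 in SED. ME was the highest group in both dyes, and ME minus SED was 0.13 (limma adjusted p = 0.248). Mrps10 and Mrps24, small subunit proteins with bacterial counterparts, differed by 0.11 and 0.10. Mrpl45 was the farthest apart the other way at -0.20 (limma adjusted p = 0.116), then Mrpl32 at -0.18 and Mrpl4 at -0.13. The dimmer probe of Mrpl4 had 0.15.

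The widest differences against SED came from members below column 70 whose SED samples did not match. Mrpl18, a protein of the central protuberance, had 8.50 and 8.55 in AX+ME, 7.99 and 8.87 in AX, 9.01 and 9.22 in ME, and 6.13 and 2.36 in SED. The 6 other samples were alike and the SED samples were lower and far from each other, and ME minus SED was 1.26 ± 0.42 (SE; limma adjusted p = 0.171). Mrps22, a small subunit protein particular to mitochondria, had 3.79 and 3.80 in AX+ME, 3.72 and 4.04 in AX, 3.98 and 4.26 in ME, and 3.82 and 1.73 in SED, where only replicate 2 stood apart. Mrps18b, also of the small subunit, had 9.45 and 8.86 in AX+ME, 9.17 and 9.42 in AX, 9.88 and 9.93 in ME, and 11.6 and 18.0 in SED, the opposite way. Mrpl27, of the central protuberance, had 12.8 and 12.2 in AX+ME, 12.6 and 11.5 in AX, 13.5 and 13.4 in ME, and 16.3 and 21.5 in SED. Against the other groups SED was thus low in 2 of these 4 members and high in the other 2, and none of the 4 passed the test. Mrpl38, of the central protuberance, had 3.72 and 3.34 in AX+ME, 3.65 and 3.27 in AX, 3.69 and 3.44 in ME, and 3.02 and 1.92 in SED. Mrpl12, which recruits translation factors at the stalk and also binds the mitochondrial RNA polymerase, had 13.7 and 11.4 in AX+ME, 13.3 and 10.3 in AX, 14.2 and 11.0 in ME, and 18.0 and 17.6 in SED. Its SED samples stood above the other 6, and AX minus SED was -0.60 (limma adjusted p = 0.0545).

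AX+ME against AX asks for exercise on top of the diet and again no SED array enters the difference. The median of the members was 0.003, equal to the 0.003 of genes of like brightness, with 40 higher and 37 lower and a range of -0.077 to 0.13. Higher in both dyes were 25 members (32.5%), against 32.3% of all genes. By limma no member was called (0 of 77, and 0.0% of all genes in either direction). None had an unadjusted p under 0.05, where 6.04% of all genes and 1.35% of genes of like brightness had. With both SED arrays left out, limma again called no member and gave none an unadjusted p under 0.05. Mrps11, of the small subunit platform, had the largest difference, with 1.76 and 1.82 in AX+ME, 1.66 and 1.61 in AX, 1.93 and 1.90 in ME, and 2.16 and 1.89 in SED. The AX samples were the lowest, and AX+ME minus AX was 0.13 (limma adjusted p = 0.916). From column 70 the extremes were Mrps5 at 0.081 and Mrpl52 at -0.077.

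The interaction, the diet difference in exercised mice less that in sedentary mice, had a median of -0.014 over members, against 0.047 for genes of like brightness and 0.050 for all genes. Limma called none of the 77 (0.092% of all genes higher and 0.463% lower). It gave 6 members (7.79%) an unadjusted p under 0.05, against 14.7% of all genes and 14.7% of genes of like brightness. The smallest adjusted p, 0.067, was that of Mrpl36. Its interaction was -0.67 ± 0.079 (SE), and its 2 SED samples were the low ones of the 8, as given above. Exercise averaged over diets had a median of 0.003, with 27 members higher in both dyes (27.9% of all genes were). Limma called 0 members (0.563% of all genes higher and 0.118% lower). It gave 7 (9.09%) an unadjusted p under 0.05, against 19.4% of all genes and 19.0% of genes of like brightness. Astaxanthin averaged over activity had a median of -0.11, against -0.065 for genes of like brightness and -0.022 for all genes. There 62 of 77 members were lower, 54 in both dyes (39.1% of all genes were), and 38 of the 39 from column 70. Limma called none (0.625% of all genes higher and 0.121% lower), with 36 members (46.8%) at an unadjusted p under 0.05, against 26.4% of all genes and 32.2% of genes of like brightness, and a smallest adjusted p of 0.0835. Without SED replicate 1 it called 13 members in the interaction (10.8% of all genes), 13 for exercise (11.4%) and 16 for astaxanthin (13.9%). Without SED replicate 2 it called 1 (2.41%), 3 (3.26%) and 3 (3.7%).

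Genes with a second probe allow a check within the gene. Of 21 members with at least 2 probes kept, 6 had probes 0.5 or more apart on the log2 scale against SED: Mrpl22, Mrpl27, Mrpl40, Mrpl47, Mrpl49 and Mrps18b. Each of the 6 had a probe below column 70. For Mrpl40, of the central protuberance, AX+ME minus SED was -0.079 by the brighter probe, from column 70, and 1.07 by the dimmer one below it. In the 7 members with both probes from column 70 the largest gap was 0.38 for AX+ME, 0.34 for AX and 0.29 for ME against SED. These gaps were those of Mrpl4, whose probes had opposite signs. Its AX+ME minus SED was -0.23 by the brighter probe and 0.14 by the dimmer one. Over all 21 members the largest gap without SED in the difference was 0.15 (AX+ME minus ME) and 0.16 (AX+ME minus AX).

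**Figure D4:**
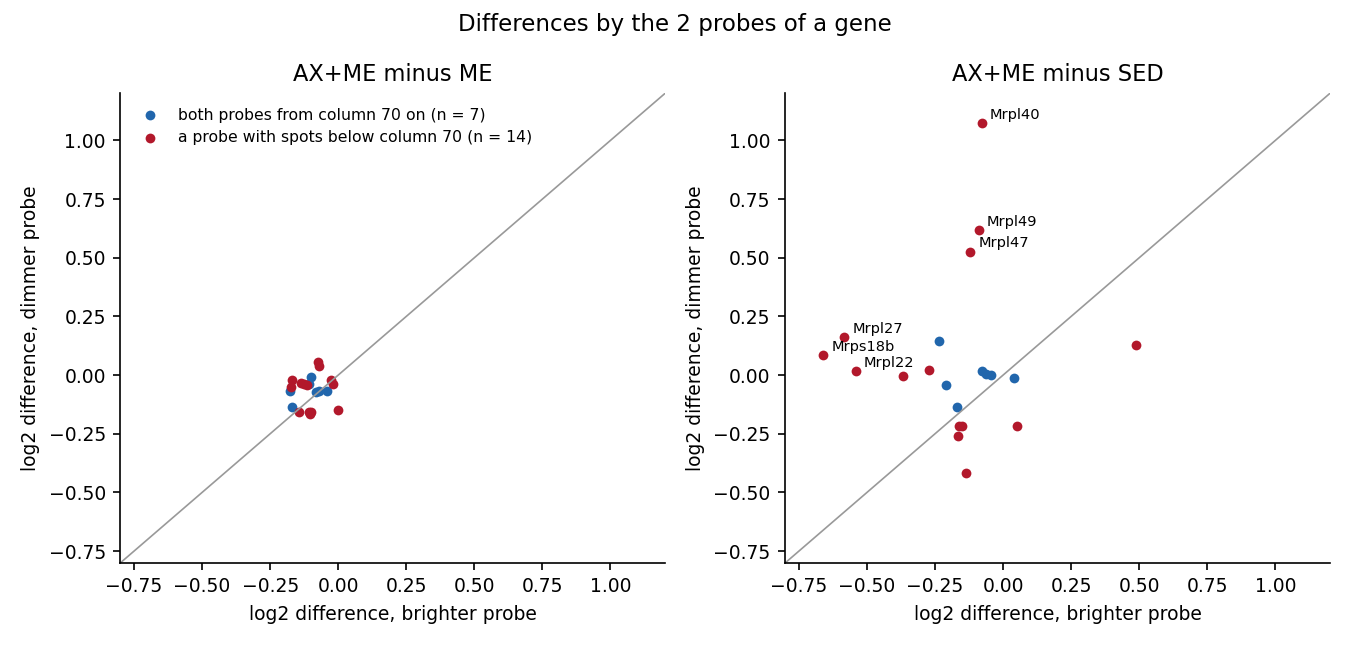
Log2 difference by the dimmer probe (y axis) against the brighter probe (x axis) for members with at least 2 probes kept, in comparisons with and without SED (panels). Points are genes, marked by whether both probes lie from column 70 on, and the diagonal marks equal values. Points without SED stay within 0.16 of the diagonal, and those with SED reach 1.15 from it.

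The wider machinery of mitochondrial translation was followed in lists chosen by role. In AX+ME against ME the median log2 difference was -0.047 for 5 mitoribosome proteins with other names (4 lower), -0.062 for 12 translation factors (9 lower), -0.036 for 17 aminoacyl-tRNA synthetases (10 lower) and -0.041 for 29 assembly and rRNA modification genes (20 lower). Mitochondrial transcription and RNA handling had -0.057 (16 of 19 lower), and the 4 kept of 5 genes for membrane insertion -0.082 (4 lower). The list nearest 0 was that of 10 transcription factors and coactivators of mitochondrial genes, at -0.020 (6 lower). Subunits and assembly factors of complex I had -0.068 (31 of 36 lower) and complexes III to V -0.087 (29 of 34 lower). The 78 cytosolic ribosomal proteins kept, which build the ribosomes of the cytosol, had -0.089 (68 lower). In limma no gene of these lists was called there, and 6 of 244 had an unadjusted p under 0.05. Among all genes 8.36% had such a p, and among genes of like brightness 3.93%. Averaged over the dyes, the members' median was close to those of cytosolic ribosomal proteins and complexes III to V. Unlike in the members, the dyes disagreed in these lists. Cytosolic ribosomal proteins had -0.17 in Cy3 and 0.0094 in Cy5, with 35 of 78 lower in both dyes (22 of 64 from column 70). Complexes III to V had -0.19 and 0.12, with 11 of 34 lower in both dyes (8 of 24 from column 70). Of those 78 genes 36, and of those 34 genes 21, were saturated on at least 1 array, which compresses differences. In the fit from column 70 the medians were -0.093 for the members, -0.083 for cytosolic ribosomal proteins, -0.074 for complexes III to V, -0.050 for complex I and -0.044 for genes of like brightness.

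**Figure D5:**
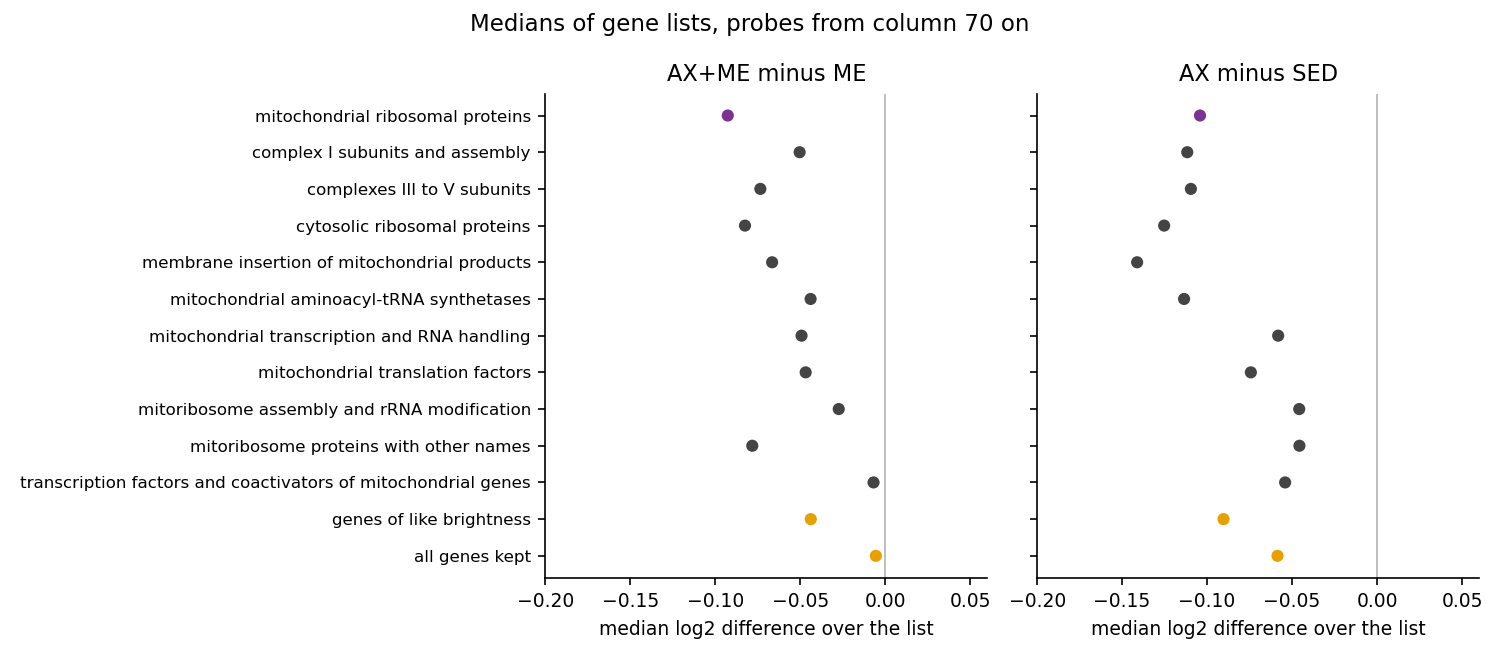
Median log2 difference (points) for the members, for 10 lists, for genes of like brightness and for all genes kept (rows). Values are from the fit of genes with a probe from column 70, for AX+ME minus ME and AX minus SED (panels). In AX+ME minus ME the members stand at -0.093, cytosolic ribosomal proteins at -0.083 and genes of like brightness at -0.044. Genes of like brightness are matched to the members, not to the lists.

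Of the 244 genes kept in the 10 lists, 20 passed limma's test in at least 1 of 5 comparisons, each time against SED (8.20%, against 8.57% of all genes). Of the 20, 17 (85.0%) had a probe below column 70, against 62.8% of all genes called and 41.5% of all genes kept, and 6 were saturated on at least 1 array. Chchd1, a small subunit protein that the naming rule does not take in, was from column 70 and had 20.9 and 20.4 in AX+ME, 21.5 and 20.9 in AX, 24.1 and 22.2 in ME, and 28.7 and 29.1 in SED. SED stood above all other samples, and the log2 difference was -0.49 for AX+ME (limma adjusted p = 0.0293), -0.45 for AX (0.0389) and -0.32 for ME (0.0685). Among 10 regulators, Myc, a transcription factor that promotes ribosome production, was the only one called. It had 0.241 and 0.243 in AX+ME, 0.247 and 0.233 in AX, 0.228 and 0.247 in ME, and 0.173 and 0.182 in SED, with a probe below column 70. SED was lowest, by 0.45 against AX+ME (limma adjusted p = 0.0394) and 0.43 against AX (0.0499). Ppargc1a, a coactivator of mitochondrial genes, had 3.56 and 4.09 in AX+ME, 4.21 and 4.09 in AX, 4.27 and 4.28 in ME, and 5.75 and 5.08 in SED, again below column 70, and did not pass (AX+ME minus SED -0.50, limma adjusted p = 0.057). Nrf1 had 1.05 and 0.966 in AX+ME, 1.02 and 0.970 in AX, 1.08 and 0.997 in ME, and 1.07 and 1.03 in SED. Gabpa had 0.837 and 0.828 in AX+ME, 0.823 and 0.912 in AX, 0.836 and 0.869 in ME, and 0.902 and 0.903 in SED, and like Nrf1, Gabpb1, Yy1, Esrra, Ppargc1b, Pprc1 and Ppara it passed in no comparison. Members with an ETS word in the promoter had a median of -0.11 in AX+ME against ME (25 genes), against -0.098 for those without (43 genes). The other words went the other way. Members with an NRF1 word had -0.058 (7 genes), against -0.100 without (61 genes). Those with a YY1 word had -0.050 (8 genes), against -0.105 (60 genes). With any of the words the median was -0.097 (35 genes), against -0.103 (33 genes). A link between words and differences was not tested.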

How the data were processed

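Hippocampal RNA of 4 groups, each with 8 mice and 2 samples, was measured on 8 arrays of 1 slide. An RNeasy Mini kit gave the RNA and a Low Input Quick Amp two-color kit the label, 1 dye per array, per the labels' protocols. The authors' scanner files hold linear intensity values that the submitters' processing notes credit to Feature Extraction 11.0.1.1 (Agilent). Per the file headers these are background-subtracted, detrended signals, not scaled between arrays. The probe design refers to mm9, per the file headers. The deposited series table holds the same intensities within 0.5 unit and was an alternative. Such detrending acts within an array and cannot make arrays comparable, so scaling was part of the work done here.

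Own-dye processed signals, without 3671 control spots and outlier spots, were averaged over spots of a probe (55681 probes), divided by the array's 75th percentile and put on a log2 scale with a floor of 0.005. Symbols came from accessions through RefSeq's gene table. Probes were kept (37441) where some group had them well above background on its 2 arrays, with 1 probe per gene, the brightest saturated on no array where there was one. A limma model (limma 3.58.1, R 4.3.3) with group and dye terms over 8 samples (3 residual and 1.53 prior degrees of freedom) gave two-sided p-values, adjusted by Benjamini-Hochberg over all 27188 genes with a threshold of 0.05. On simulated data for AX+ME against SED (27188 genes), the fit recovered the sizes of the changes put in. These changes were far larger than the members' shifts, and each gene had the same spread in all 8 samples. The simulation therefore does not cover small shifts or the uneven SED arrays. Samples with the same number share a dye, so the dye term is the replicate block.

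The members and the lists were chosen with earlier results of these data known. The rule named members past the threshold, the largest differences in both dyes from column 70 (3 each way) and below it (2 each way), the 5 brightest and 5 dimmest, members never kept, and those whose probes lay 0.5 apart. Alternatives were quantile and cyclic loess normalization, the array median, normexp background (run on the spots' median signal, since the files hold no mean signal), the authors' table, other filters and probe choices, columns from 70 on, no dye term, an intensity trend, each sample left out and, added after the data were seen, both SED arrays left out. Promoters are RefSeq's for GRCm38.p6. Python 3.11.15, pandas 2.3.3, numpy 2.4.6 and matplotlib 3.10.9 were used.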

Additional observations from a re-analysis of the deposited data

How the results depend on the processing

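With 2 samples per group, effects near 0.1 cannot be told from sample spread by a test over 27188 genes, and below column 70 the SED arrays limit every difference from SED. In the differences of AX+ME from ME and from AX, limma called 0 members under every alternative run. Against SED, the number called for ME, AX and AX+ME (1, 2 and 4 as reported) was 2, 2 and 2 with quantile normalization and 2, 2 and 2 with cyclic loess; 1, 6 and 19 with the array median; 4, 14 and 20 with normexp; 1, 4 and 7 without a filter; 2, 6 and 8 with probes well above background on all 8 arrays; 2, 2 and 2 with the mean of a gene's probes; 3, 10 and 13 with an intensity trend; and 0, 0 and 0 from column 70. Without the dye term (no replicate block) it was 1, 1 and 2, and the block changed no other member count. Shares of all genes called stand above for normexp, the array median and the trend (AX and AX+ME), and from column 70 (AX+ME). For the other settings so far no share is given, so their counts cannot be read against the rate over all genes. The same holds for the normexp, trend and filter counts of the interaction, exercise and astaxanthin that follow. With 1 sample left out the counts ran from 0 to 16, 0 to 22 and 0 to 22. For the interaction, exercise and astaxanthin (0 each) they were 2, 2 and 5 with normexp, 1, 1 and 5 with the trend, 1 for the interaction with all 8 arrays above background, and 0 to 13, 0 to 13 and 0 to 16 with 1 sample left out. The members' median difference for AX+ME against ME was -0.048 with quantile normalization, -0.055 with cyclic loess, -0.18 with the array median and -0.083 with normexp, and -0.10 to -0.091 with 1 sample left out. For AX against SED it was -0.040, -0.0045, -0.16 and -0.16 in that order, and -0.13 to -0.094. For AX+ME against SED it was -0.039, -0.017, -0.20 and -0.16, then -0.10 with the mean of probes and -0.10 from column 70, and -0.12 to -0.10 with 1 sample left out. For ME against SED it was 0.025, 0.065, 0.0033 and -0.097, then -0.00014 without a filter and 0.013 from column 70, and -0.013 to 0.012. For AX+ME against AX it was -0.020 with the array median and -0.0040 to 0.014 with 1 sample left out. The array median moved the median of all genes in AX+ME against ME to -0.090. The cause of these moves was not tested.

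Of the differences of single named members, 1418 values kept their direction and side of the threshold, 56 lost and 47 gained the call, and 48 changed sign, 10 of them to values over 0.1 in size (up to 0.227). With normexp, AX minus SED turned to -0.028 for Mrpl15, -0.19 for Mrps18a, -0.23 for Mrps23 and 0.11 for Mrps18b (-0.64 as reported). AX+ME minus SED turned to -0.031 for Mrpl15, -0.14 for Mrps18a, -0.071 for Mrps24 and 0.053 for Mrps18b. ME minus SED turned to -0.068 for Mrps10, -0.068 for Mrps18a, -0.079 for Mrps24 and 0.11 for Mrps18b. Exercise over diets turned to -0.016, -0.0086, -0.012 and 0.027 for the same 4, and astaxanthin to 0.025 for Mrps18b. The interaction turned to 0.091 for Mrpl20, -0.030 for Mrpl27, 0.10 for Mrps10 and 0.12 for Mrps18a. With the array median, AX minus SED turned to -0.041 for Mrpl15, -0.036 for Mrps18a and -0.045 for Mrps23, AX+ME minus SED to -0.028 for Mrpl15, -0.014 for Mrps18a and -0.012 for Mrps24, and AX+ME minus ME to -0.039 for Mrps27. With the mean of probes, Mrpl15 turned to -0.049 (AX) and -0.082 (AX+ME) against SED, Mrps23 to -0.025 (AX) and Mrpl4 to 0.010 (ME). From column 70, by their other probe, Mrpl22 turned to 0.055 (ME against SED) and 0.039 (exercise), and Mrps18b to 0.086 (AX+ME), 0.13 (ME) and 0.11 (exercise). Leaving out 1 sample gave ranges across 0 for AX minus SED of Mrpl15 (-0.0066 to 0.038) and Mrps18a (-0.0059 to 0.048), for AX+ME minus AX of Mrpl19 (-0.091 to 0.34) and Mrpl23 (-0.18 to 0.098), and for AX+ME minus ME of Mrpl37 (-0.16 to 0.34) and Mrps27 (-0.046 to 0.13).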
